A study of Mus musculus with 27 samples.

Results

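The 9 genes described here code for subunits of the voltage-gated potassium channels that repolarize heart muscle cells: Kcnd2, Kcnd3, Kcna4 and Kcnip2 of the transient outward current, Kcna5 and Kcnv2 of the slowly inactivating outward currents, and Kcnq1, Kcne1 and Kcnh2 of the delayed rectifier currents. They were chosen by gene symbol, with earlier results of these data known, and all 9 were found among the 55487 genes of the count table. Their expression was measured by RNA sequencing of mouse heart ventricle in 27 libraries of 7 groups, in a study of how gene expression matures after birth and responds to the dose of MBNL1, which binds RNA and controls its splicing and lifetime. The control group (Ctl) of postnatal day 1 had 4 libraries. Postnatal day 7 had 3 controls and a group of 4 labelled Tg, for MBNL1 gain of function. Postnatal day 60 had pairs of groups at 2 times after knockout: 5 libraries labelled KO, for MBNL1 loss of function, beside 4 controls at 7 days, and 4 labelled KO beside 3 controls at 14 days. The sources used here do not give the strain, the promoter that drives the transgene, the means and cell type of the knockout, any treatment that the day 60 controls shared with the KO animals, or the number of animals behind a group. P-values therefore measure the spread between these libraries, which may be technical in part.

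A heart muscle cell ends each action potential by letting potassium out through channels that open on depolarization. Several alpha subunits join to build a pore, and small auxiliary subunits set how many channels reach the membrane and how fast they open and close. In the ventricle of adult mice the action potential is short and is ended mainly by transient outward and slowly inactivating currents, whereas the delayed rectifiers carried by Kcnq1 and Kcnh2 are known above all from hearts that beat slowly, such as the human heart, where inherited variants of their genes prolong the QT interval. Kcnd2 and Kcnd3 are the Shal-type pores of the fast transient outward current, Kcnip2 is the calcium-binding subunit that this current needs, and Kcna4 is the Shaker-type pore of the slow transient outward current.

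Total counts ran from 21929347 to 25675115 per library, and levels are CPM, counts scaled to a common library size. The limit that a count of 0 allows, 3 counts, was worth 0.0956 to 0.187 CPM and covers counting error only. Libraries labelled Tg held 2927 to 4079 CPM of Mbnl1, against 96.9 to 104 in the day 7 controls. Libraries labelled KO held 103 to 219 CPM at 7 days and 117 to 139 at 14 days, against 145 to 169 in the day 60 controls, so the gene total did not separate them at 7 days. Esr1, the estrogen receptor gene, stood at 234, 1905, 651, 1671 and 193 CPM in KO libraries 1 to 5 of 7 days, at 1672 to 1983 at 14 days and at 0.482 to 1.49 in the day 60 controls. Fitted differences are given below with and without libraries 1 and 5, which had the lowest Esr1. Markers of heart muscle cells were high in every library, with 10 markers summing to 26190 CPM or more, and none of the fibroblast or macrophage markers was at 0 throughout a group.

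On GRCm38 (mm10), Kcnd2 (ENSMUSG00000060882) lies on chromosome 6 from 21215503 to 21729805 on the plus strand, Kcnd3 (ENSMUSG00000040896) on chromosome 3 from 105452330 to 105674002 on the plus strand, and Kcna4 (ENSMUSG00000042604) on chromosome 2 from 107290639 to 107298502 on the plus strand. Kcnip2 (ENSMUSG00000025221) lies on chromosome 19 from 45791839 to 45816061 on the minus strand, and Kcnv2 (ENSMUSG00000047298) on the same chromosome from 27322588 to 27337179 on the plus strand. Kcna5 (ENSMUSG00000045534), a gene of 1 exon, lies on chromosome 6 from 126532551 to 126535412 on the minus strand. Kcnq1 (ENSMUSG00000009545) spans 143106362 to 143427042 of chromosome 7 on the plus strand, Kcne1 (ENSMUSG00000039639) 92345982 to 92359468 of chromosome 16 on the minus strand, and Kcnh2 (ENSMUSG00000038319) 24319589 to 24351604 of chromosome 5 on the minus strand. Kcnq1 overlaps the antisense RNA Kcnq1ot1, with 121 shared exon bases, 2.96% of its exon length. Kcnd3 shares 165 bases, 1.72%, with the antisense gene Kcnd3os. The strand setting of the counting was not given in the sources used here, so reads from these shared stretches cannot be told apart.

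The sequences just upstream of the 4 transient outward genes are shown because their levels moved together in part: Kcnip2, Kcnd2 and Kcnd3 were low in neonates and in the libraries labelled KO, and Kcna4 was high there. Each is the 250 bases before the RefSeq start on GRCm38.p6, written 5′ to 3′ on the strand of the gene, with the GC box GGGCGG or its reverse complement in capitals. The windows are chr19:45816064-45816313 on the minus strand for Kcnip2, chr6:21215096-21215345 on the plus strand for Kcnd2, chr3:105451640-105451889 on the plus strand for Kcnd3 and chr2:107290339-107290588 on the plus strand for Kcna4.
Kcnip2: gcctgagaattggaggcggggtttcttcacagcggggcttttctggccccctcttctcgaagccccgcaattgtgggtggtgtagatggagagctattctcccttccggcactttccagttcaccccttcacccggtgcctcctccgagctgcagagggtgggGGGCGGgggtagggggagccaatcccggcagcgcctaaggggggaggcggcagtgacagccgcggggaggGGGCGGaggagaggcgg
Kcnd2: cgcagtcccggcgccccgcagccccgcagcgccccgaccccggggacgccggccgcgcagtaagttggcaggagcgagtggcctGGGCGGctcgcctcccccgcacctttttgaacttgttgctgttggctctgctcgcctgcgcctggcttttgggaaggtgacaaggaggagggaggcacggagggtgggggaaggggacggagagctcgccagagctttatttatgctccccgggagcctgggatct
Kcnd3: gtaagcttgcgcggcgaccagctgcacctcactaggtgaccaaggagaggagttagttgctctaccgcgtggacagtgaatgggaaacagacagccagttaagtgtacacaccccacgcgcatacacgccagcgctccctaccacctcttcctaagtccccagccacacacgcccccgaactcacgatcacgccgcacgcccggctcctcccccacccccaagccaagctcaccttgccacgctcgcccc
Kcna4: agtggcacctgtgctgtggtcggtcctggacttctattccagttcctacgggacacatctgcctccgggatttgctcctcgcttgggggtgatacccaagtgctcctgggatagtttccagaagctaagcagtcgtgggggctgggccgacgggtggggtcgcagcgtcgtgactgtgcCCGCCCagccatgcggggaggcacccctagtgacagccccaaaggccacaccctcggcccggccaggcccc
All 4 windows were richer in G and C than the median of 52.4% over 32817 such windows of the mouse genome, at 66.8% for Kcnip2, 68.8% for Kcnd2, 62.8% for Kcnd3 and 65.2% for Kcna4. On both strands, Kcnip2 held 2 GC boxes and Kcnd2 and Kcna4 held 1 each, while these letters were not in the Kcnd3 window, and 32.7% of all windows held at least 1. The E-box CANNTG, present in 66.2% of all windows, occurred once in the Kcnip2 window, once in that of Kcnd3 and at 3 places in that of Kcna4. Windows were found for 6 of the 9 genes, and such matches are letters in a sequence, not measured binding sites.

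In the controls of day 60, Kcnip2 was the most abundant of the 9 transcripts per length and Kcna4 the least. Levels per kilobase of exon at 7 days were 104 ± 5.95 CPM per kb for Kcnip2 (SD, n = 4), 41.7 ± 5.51 for Kcnh2, 18.9 ± 0.634 for Kcna5, 15.7 ± 1.56 for Kcnq1 and 7.34 ± 0.837 for Kcnd2. Kcne1 at 4.2 ± 2.53, Kcnv2 at 3.21 ± 0.168, Kcnd3 at 1.58 ± 0.199 and Kcna4 at 0.165 ± 0.0661 CPM per kb followed. Of the Shal-type pores, Kcnd2 thus stood above Kcnd3. At day 1 the order differed at its top, with Kcne1 at 52.1 ± 7.22 CPM per kb (n = 4), Kcnh2 at 48 ± 3.72 and Kcnip2 at 32.3 ± 7.27, and at its bottom, with Kcnd3 at 0.226 ± 0.129 and Kcnv2 at 0.0127 ± 0.00915. In the libraries labelled KO at 7 days, Kcnh2 led with 27.9 ± 10.1 CPM per kb (n = 5), and Kcnip2, with 8.24 ± 6.82, came after Kcnq1 and Kcna5.

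**Figure D1:**
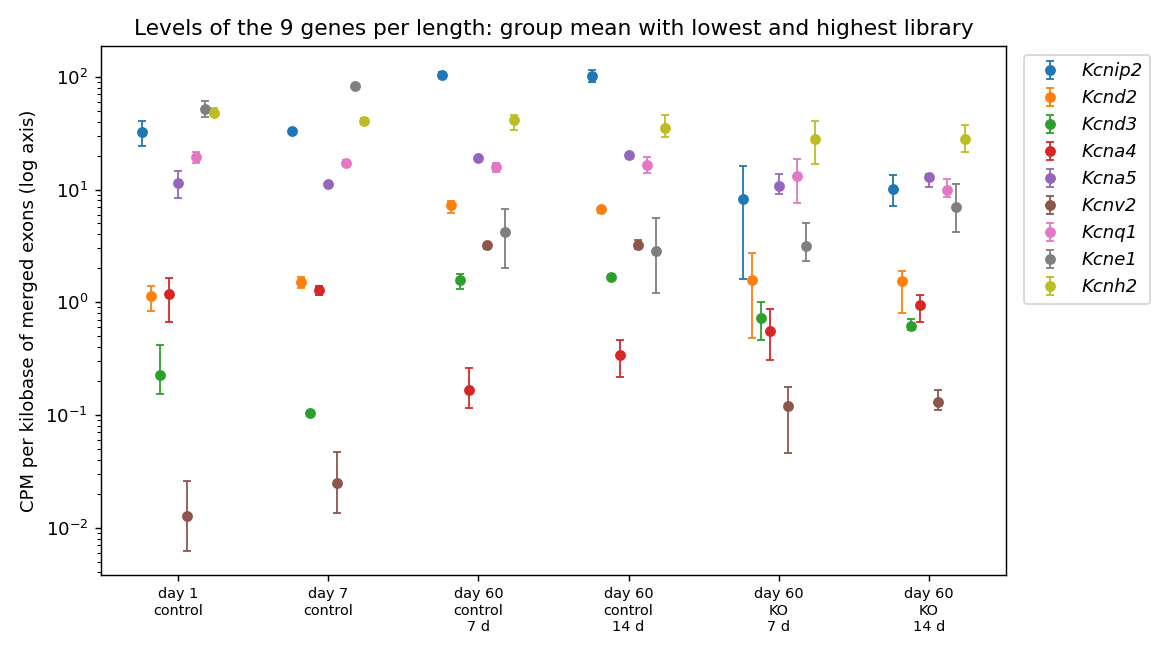
Level of each of the 9 genes per kilobase of merged exons in the 4 control groups and the 2 groups labelled KO, on a log axis in CPM per kb; points are group means and bars reach from the lowest to the highest library. Kcnip2 is the highest of the 9 in the day 60 controls, at 104 CPM per kb at 7 days, and falls below Kcnh2, Kcnq1 and Kcna5 in the libraries labelled KO at 7 days, at 8.24.

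Control groups of different ages were compared to follow the channel genes after birth. A difference in strain or treatment between these groups, which the sources used here do not give, cannot be told apart from age. Between postnatal days 7 and 60, 5 of the 9 genes rose (Kcnd2, Kcnd3, Kcnip2, Kcna5 and Kcnv2), 2 fell (Kcna4 and Kcne1) and Kcnq1 and Kcnh2 were not called. Calls here and below are adjusted p-values under 0.05 in edgeR's quasi-likelihood test, with Benjamini-Hochberg adjustment over all genes tested. Of the 16388 genes tested, 69.3% were called in this comparison (33.3% higher and 36% lower), so 7 of 9 is close to the share of all genes. In whole ventricle, fewer cells of a type and less RNA per cell cannot be told apart. The median log2 difference was 0.81 over the 9 genes and -0.05 over all genes. The 7 controls of day 60 entered as their 2 groups with equal weight. They also serve as controls for the KO libraries, and the day 7 controls for those labelled Tg, so the comparisons share libraries.

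Kcnip2 stood at 119, 110 and 113 CPM in the 3 controls of day 7 and at 312 to 398, with a median of 355, in the 7 controls of day 60. No day 60 control came near the day 7 range, and the log2 difference was 1.63 ± 0.14 (SE, edgeR adjusted p = 1.02e-07), a 3.1-fold rise. Kcnd2 stood at 8.66, 7.87 and 6.83 CPM at day 7 and at 31.6 to 40.9 at day 60, a log2 difference of 2.20 ± 0.15 (edgeR adjusted p = 9.94e-09). Its Shal-type partner Kcnd3 was scarcer and rose more steeply, from 0.939, 0.963 and 1.05 CPM to 12.5 to 17 CPM, a log2 difference of 3.97 ± 0.31 (edgeR adjusted p = 3.21e-08). Both groups of each gene were apart.

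Kcna4 went the other way. The slow transient outward pore held 6.3, 6.74 and 5.61 CPM in the day 7 controls and 0.554 to 2.24 CPM, with a median of 1.06, in those of day 60. The groups did not overlap, and the log2 difference was -2.44 ± 0.27 (edgeR adjusted p = 1.18e-06), a 5.42-fold fall.

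Kcnv2 had the widest range of the 9 genes. It codes for a silent subunit that forms no channel alone and modifies the pores it joins. It had 1, 2, 1 and 4 reads in the day 1 controls and 2, 7 and 2 in those of day 7, which is about the level of 3 counts or less in 5 of these 7 libraries. In the day 60 controls it stood at 15 to 18.2 CPM. The ratio of summed counts between day 60 and day 7 was 129, with a 95% exact interval of 71.9 to 259 that covers counting error only, and between day 60 and day 1 it was 254 (129 to 589).

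Kcna5, the pore of a slowly inactivating current in mouse ventricle, held 32.7, 31.8 and 30.6 CPM at day 7 and 52.2 to 58.6 at day 60. Every day 60 control was above every day 7 control, and the log2 difference was 0.81 ± 0.12 (edgeR adjusted p = 2.1e-05). This call depended on the scaling of the libraries. Scaled by total counts, which moved the median of all genes to -0.65 in this comparison, Kcna5 differed by 0.21 (edgeR adjusted p = 0.136). The directions of Kcnd2, Kcnd3, Kcnip2, Kcnv2, Kcna4 and Kcne1 between days 7 and 60 held under that scaling.

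Of the delayed rectifier genes, Kcne1 fell and its pore did not follow. Kcne1, the single-pass subunit that slows the opening of Kcnq1 channels, held 274, 273 and 260 CPM at day 7 and 21.7 at most at day 60. Its 7 controls of day 60 were uneven: libraries 2, 3 and 7 held 21.7, 19.2 and 17.9 CPM, and libraries 1, 4, 5 and 6 held 6.45, 6.59, 5.94 and 3.86. The log2 difference was -4.59 ± 0.38 (edgeR adjusted p = 6e-08), a 24-fold fall. The summed level of 6 atrial markers was 102, 183 and 89.1 CPM in the former and 186, 61.1, 120 and 181 in the latter. The part of atrial tissue in this unevenness was not tested.

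Kcnq1 stood at 66.7 to 74 CPM at day 7 and at 57.6 to 80.4 at day 60, and the groups overlapped (log2 difference -0.11 ± 0.10, edgeR adjusted p = 0.351). Kcnh2, the pore of the rapid delayed rectifier, stood at 190 to 207 CPM and at 142 to 223, again overlapping (-0.10 ± 0.13, edgeR adjusted p = 0.485). The median of all genes was -0.05. Scaled by total counts both were called lower, at -0.71 for Kcnq1 and -0.70 for Kcnh2, beside -0.65 for the median gene.

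Between days 1 and 7 only Kcnd3 was called, against 23.5% of all genes tested (11.2% lower and 12.3% higher). It held 1.52, 1.64, 4.02 and 1.48 CPM at day 1 and 0.939 to 1.05 at day 7, with no overlap, and differed by -1.14 ± 0.32 (edgeR adjusted p = 0.0195). Library 3 of day 1 had the highest value by far, and without it the log2 difference was -0.66. The call was lost without day 7 control 1 (edgeR adjusted p = 0.0645) or 2 (0.0629). Kcne1 was at 140 to 197 CPM at day 1, below all 3 day 7 controls, but was not called (0.68 ± 0.40, edgeR adjusted p = 0.251). Without libraries 3 and 4 of day 1, an alternative chosen after seeing the data, Kcnip2 was called as well (0.31, edgeR adjusted p = 0.0296). These 2 libraries held the highest Kcnip2 of day 1, at 140 and 126 CPM, against 83.7 and 99.5 in libraries 1 and 2. Kcnd3 then differed by -0.69.

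Against day 1, all 9 genes were called at day 60, where 73.7% of all genes tested were called, 35.1% as higher and 38.6% as lower: 5 were higher, and Kcna4, Kcne1, Kcnq1 and Kcnh2 were lower. Kcnd2 differed by 2.62, Kcnd3 by 2.83, Kcnip2 by 1.65 and Kcne1 by -3.91 on the log2 scale. Kcnq1 (-0.29 ± 0.09, edgeR adjusted p = 0.00794) and Kcnh2 (-0.34 ± 0.12, edgeR adjusted p = 0.0167) had the smallest differences with this scaling, whereas with total count scaling they were at -0.95 and -0.99. The call for Kcnh2 was lost without libraries 3 and 4 of day 1 (-0.31). The Kcna5 difference of 0.77 was 0.11 with total count scaling (edgeR adjusted p = 0.374).

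Markers of heart muscle cells rose over the same interval. All 10 were called higher at day 60 than at day 7, with a median log2 difference of 0.59 and summed levels of 77144 to 86561 CPM in the day 60 controls against 54215 to 55861. The summed fibroblast markers were 5383 to 6349 CPM at day 7 and 1327 to 1607 at day 60, with 6 of 8 called lower. Macrophage markers, 79.7 to 97 CPM at day 7 and 251 to 372 at day 60, were called higher for all 8, and atrial markers lower for 4 of 6, with a median of -1.38. Their part in the results of the channel genes was not tested.

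**Figure D2:**
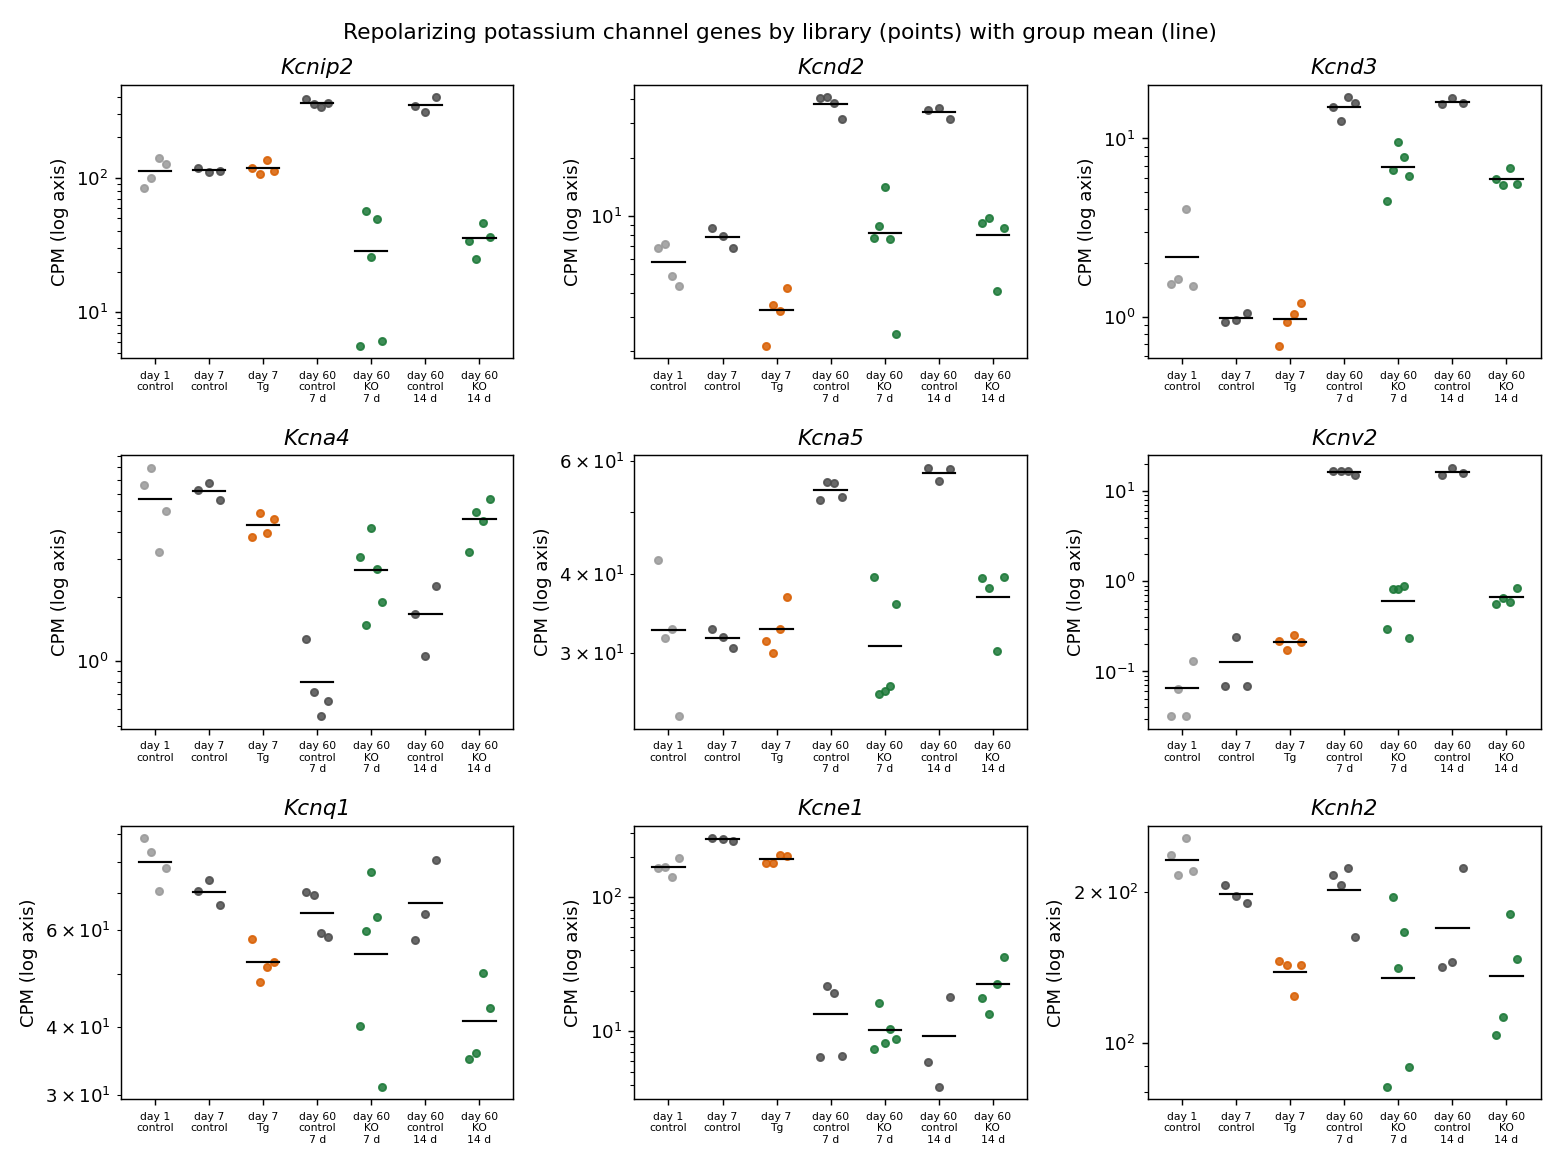
CPM of each of the 9 genes in every library of the 7 groups, on log axes; points are libraries and horizontal lines group means. Kcnip2 libraries labelled KO lie between 5.62 and 56.4 CPM, below every other library, and Kcne1 is at 140 CPM or more in every neonatal library and at 35.5 or less at day 60.

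With MBNL1 gain of function at postnatal day 7, 5 of the 8 channel genes that could be tested were lower and none was higher by edgeR's test. Kcnd2, Kcna4, Kcnq1, Kcne1 and Kcnh2 fell. Each had every Tg library below every control, but how often this holds among all genes was not counted. Among all genes tested, 30.7% were called, with 15.8% of those tested lower and 14.9% higher. The median log2 difference was -0.46 over the 8 genes and -0.00 over all genes. With 3 controls, the precision of each value is limited.

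Kcnd2 had the largest of these falls. It held 2.14, 3.48, 3.22 and 4.25 CPM in the libraries labelled Tg and 8.66, 7.87 and 6.83 in their controls, a log2 difference of -1.25 ± 0.17 (edgeR adjusted p = 0.000145). The Tg libraries lay below the day 1 controls too, at 4.33 to 7.16 CPM. The other Shal-type pore, Kcnd3, held 0.689, 0.941, 1.04 and 1.2 CPM, around the controls (-0.03 ± 0.23, edgeR adjusted p = 0.946).

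Kcna4 held 3.77, 4.88, 3.94 and 4.6 CPM with the transgene, against 5.61 to 6.74 without (-0.54 ± 0.12, edgeR adjusted p = 0.00478). Kcnip2, at 118, 106, 136 and 112 CPM, overlapped its controls (0.04 ± 0.07, edgeR adjusted p = 0.711), as did Kcna5 at 31.4, 30, 32.7 and 36.7 CPM (0.04 ± 0.07, edgeR adjusted p = 0.687). The transient outward genes thus divided into Kcnd2 and Kcna4, which fell, and Kcnip2 and Kcnd3, which were not called.

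All 3 delayed rectifier genes were lower with the transgene, by similar amounts. Kcnq1 held 57.7, 48.3, 51.5 and 52.6 CPM against 70.7, 74 and 66.7 (-0.43 ± 0.06, edgeR adjusted p = 0.000124). Kcne1 held 180, 179, 207 and 203 CPM against 260 to 274 (-0.49 ± 0.06, edgeR adjusted p = 6.23e-05). Kcnh2 held 146, 143, 124 and 143 CPM against 190 to 207 (-0.52 ± 0.06, edgeR adjusted p = 5.59e-05). Each fall exceeded the spread between libraries.

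Kcnv2 did not pass the filter on low counts here. It had 24 reads over the 4 Tg libraries and 11 over the 3 controls, a ratio of 1.68 with a 95% exact interval of 0.791 to 3.79, so a difference was not detectable at this depth. Summed markers of heart muscle cells were 53670 to 59890 CPM with the transgene and 54215 to 55861 without. Macrophage markers, 130 to 162 against 79.7 to 97 CPM, were called higher for all 8, and fibroblast markers for 6 of 8. Their part in the result was not tested.

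Adult ventricles labelled for MBNL1 loss of function were compared with their controls at each time after knockout. At 7 days, Kcnip2, Kcnd2, Kcnd3, Kcna5 and Kcnv2 were lower in the libraries labelled KO, Kcna4 was higher, and Kcnq1, Kcne1 and Kcnh2 were not called. Of all 15167 genes tested, 50.7% were called, 24.3% as lower and 26.4% as higher, against 6 of the 9 channel genes. The median log2 difference was -0.82 over the 9 genes and 0.03 over all genes. The groups of the 6 called genes did not overlap, but how often this holds among all genes was not counted.

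Kcnip2 held 5.62, 56.4, 25.8, 49.4 and 6.06 CPM in KO libraries 1 to 5 and 386, 355, 336 and 364 in the controls. Every KO library was below the lowest neonatal library, at 83.7 CPM, and the SD of 23.7 CPM was nearly as large as the mean of 28.7, since libraries 1 and 5 were far below the other 3. The log2 difference was -3.68 ± 0.63 (edgeR adjusted p = 0.000807), a 12.8-fold fall, and it was -3.05 without libraries 1 and 5.

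Kcnd2 held 7.72, 8.91, 14.1, 7.6 and 2.46 CPM in the libraries labelled KO and 40.6, 40.9, 38.1 and 31.6 in the controls. The KO range covered that of the day 1 and day 7 controls, and the log2 difference was -2.23 ± 0.35 (edgeR adjusted p = 0.000446). Kcnd3 held 4.45, 6.69, 9.6, 7.92 and 6.14 CPM against 15.1, 12.5, 17 and 15.8 (-1.14 ± 0.20, edgeR adjusted p = 0.000809). Unlike Kcnd2, it stayed above every neonatal library, the highest of which held 4.02 CPM.

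Kcna4 was higher in all 5 libraries labelled KO, at 3.06, 1.48, 4.19, 2.7 and 1.88 CPM, than in the controls, at 1.27, 0.717, 0.554 and 0.653. The log2 difference was 1.72 ± 0.37 (edgeR adjusted p = 0.00279). Its KO range overlapped the day 60 controls of 14 days, at 1.06 to 2.24 CPM, and the lowest day 1 control, at 3.22.

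Kcnv2 fell most. It held 0.294, 0.817, 0.813, 0.899 and 0.235 CPM in the libraries labelled KO and 16.8, 16.8, 16.9 and 15.1 in the controls, a log2 difference of -4.75 ± 0.31 (edgeR adjusted p = 3.64e-06). The ratio of pooled counts was 0.0372, with a 95% exact interval of 0.0291 to 0.047. Kcna5 fell less, with 39.5, 25.9, 26.2, 26.7 and 35.9 CPM against 52.2 to 55.7 (-0.82 ± 0.14, edgeR adjusted p = 0.000785). The KO libraries of Kcna5 spanned the range of the day 7 controls.

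The delayed rectifier genes varied widely between the KO libraries. Kcnq1 held 40.2, 59.7, 76.7, 63.4 and 31.1 CPM against 58.3 to 70.4 (-0.27 ± 0.22, edgeR adjusted p = 0.344). Kcnh2 held 82, 196, 141, 167 and 89.7 CPM against 163 to 223 (-0.60 ± 0.24, edgeR adjusted p = 0.0572). Kcne1 held 7.38, 16.3, 8.21, 10.4 and 8.72 CPM against 6.45, 21.7, 19.2 and 6.59 (-0.43 ± 0.39, edgeR adjusted p = 0.381). Libraries 1 and 5 held the lowest Kcnip2, Kcnv2, Kcnq1 and Kcnh2 of the 5, and without them the log2 differences were 0.040 for Kcnq1 and -0.28 for Kcnh2.

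Without libraries 1 and 5, an alternative chosen after seeing the data, the same 6 genes were called: Kcnd2 at -1.90, Kcnd3 at -0.92, Kcna4 at 1.79, Kcna5 at -1.05 and Kcnv2 at -4.29, with Kcnip2 as above. Markers of other cells moved with the group. Summed markers of heart muscle cells were 35152 and 26190 CPM in libraries 1 and 5 and 53911 to 55940 in the other 3, against 77144 to 84654 in the controls, and 6 of the 10 were called lower, with a median of -0.82. Fibroblast markers summed to 3530 to 9258 CPM against 1327 to 1607, with 5 of 8 called higher, and macrophage markers to 757 to 1140 against 286 to 355, with all 8 called higher. Their part in the result was not tested. 

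At 14 days the same 6 genes were called in the same directions, and Kcnq1 was called lower as well. Of the 14976 genes tested, 44.2% were called, 22.4% as lower and 21.8% as higher, against 7 of the 9 channel genes. The median log2 difference was -0.74 over the 9 genes and 0.01 over all genes. No library is shared between the comparisons at 7 and at 14 days.

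Kcnip2 held 33.9, 24.7, 46.5 and 36.5 CPM in KO libraries 6 to 9 and 342, 312 and 398 in the controls. The groups were far apart, with a log2 difference of -3.34 ± 0.19 (edgeR adjusted p = 9.67e-07). Kcnd2 held 9.14, 9.78, 4.09 and 8.71 CPM against 35.3, 36 and 31.8 (-2.15 ± 0.23, edgeR adjusted p = 4.55e-05). Kcnd3 held 5.92, 5.47, 6.85 and 5.58 CPM against 15.7, 16.8 and 15.8 (-1.47 ± 0.12, edgeR adjusted p = 8.87e-06). Both Shal-type pores were thus below the controls in every library at both times.

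Kcna4 held 3.22, 4.94, 4.51 and 5.67 CPM against 1.65, 1.06 and 2.24, a rise of 1.43 ± 0.28 on the log2 scale (edgeR adjusted p = 0.0022). Its KO range lay within that of the day 1 controls. Kcnv2 held 0.559, 0.661, 0.585 and 0.846 CPM against 15, 18.2 and 16 (-4.64 ± 0.18, edgeR adjusted p = 1.76e-07), a 25-fold fall. Kcna5 held 39.4, 38, 30.2 and 39.5 CPM against 55.9 to 58.6 (-0.68 ± 0.10, edgeR adjusted p = 0.000462).

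Kcnq1 held 34.9, 35.9, 50.1 and 43.3 CPM against 57.6, 64.1 and 80.4, with no overlap (-0.74 ± 0.15, edgeR adjusted p = 0.00266). Its call depended on the scaling: by total counts, which moved the median of all genes to 0.39, Kcnq1 differed by -0.37 (edgeR adjusted p = 0.092). Kcnq1ot1, the overlapping antisense RNA, stood at 7.98 to 10.9 CPM in these KO libraries and at 5.45 to 8.57 in the controls. Kcne1 held 17.7, 13.5, 22.6 and 35.5 CPM against 5.94, 3.86 and 17.9 and was not called (1.24 ± 0.48, edgeR adjusted p = 0.0574). It was called without control library 7, the high one (2.15, edgeR adjusted p = 0.00241), without KO library 7 (1.42, 0.0444), with no filter on low counts (1.25, 0.000526) and with total count scaling (1.59, 0.0211). Kcnh2 held 104, 113, 181 and 147 CPM against 142, 145 and 223 (-0.35 ± 0.21, edgeR adjusted p = 0.212), and its direction turned to 0.023 with total count scaling.

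Cell markers moved at 14 days too. Summed muscle cell markers were 57075 to 67030 CPM in the libraries labelled KO and 80524 to 86561 in the controls, with 6 of 10 called lower and 1 higher, and fibroblast markers 4519 to 5223 against 1488 to 1607, with 7 of 8 called higher. Macrophage markers summed to 476 to 709 CPM against 251 to 372, with 7 of 8 called higher. Atrial markers summed to 177 to 286 CPM against 89.1 to 181, with 2 of the 5 tested called higher and 1 lower. Their part in the result was not tested. Markers of neurons and Schwann cells summed to 122 to 214 CPM against 30.1 to 36.8, and Th, a marker of sympathetic neurons, was at 0 in all 7 controls of day 60.

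**Figure D3:**
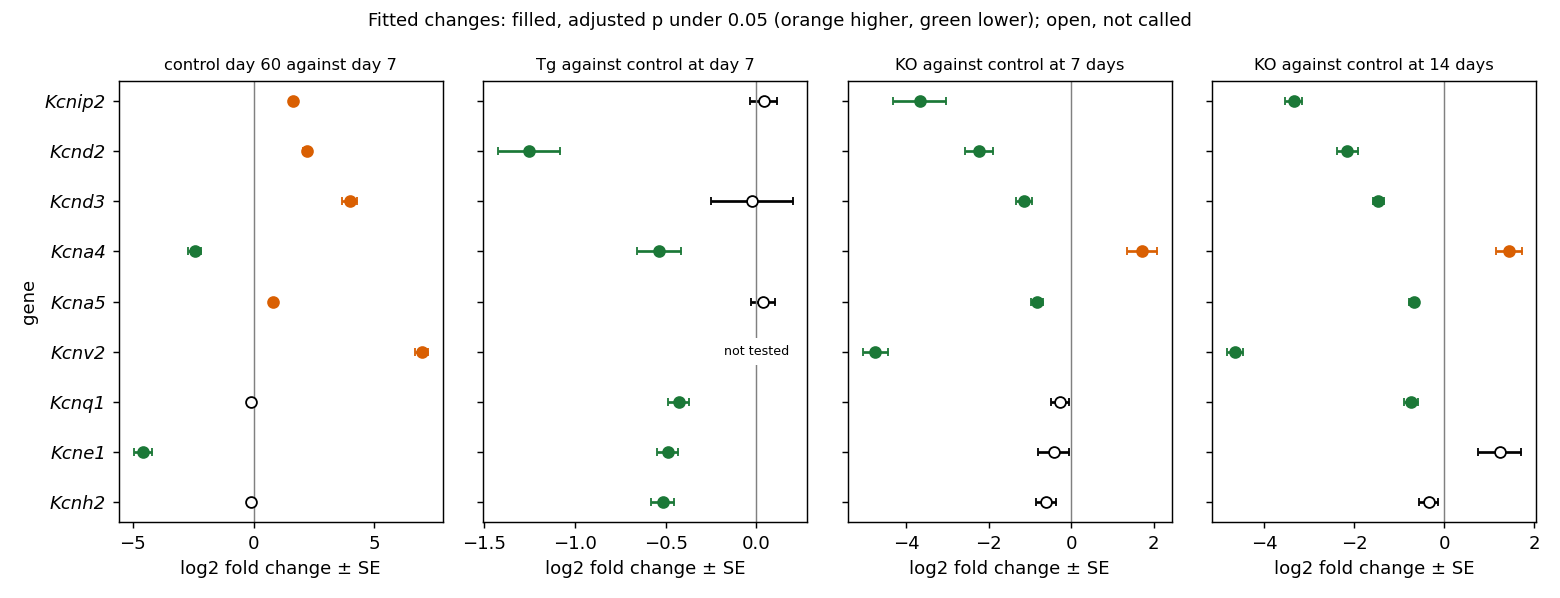
Log2 fold change of each of the 9 genes from control day 7 to day 60, with the transgene and at 7 and 14 days after knockout, on an axis of its own for each comparison, with bars of 1 SE from edgeR; filled points passed an adjusted p under 0.05. Kcnip2, Kcnd2, Kcnd3, Kcna5 and Kcnv2 lie to the right of 0 from day 7 to day 60 and to the left of 0 at both times after knockout, and Kcna4 lies the other way.

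Whether the response to knockout itself differed between 7 and 14 days was tested over the 16 libraries of day 60. None of the 9 genes was called by edgeR's quasi-likelihood test, nor any of the 15951 genes tested (0% called), and DESeq2 called 148 genes and none of the 9. At an unadjusted p under 0.05 there were 1662 genes. Kcne1 was the only one of the 9 among them, with a response higher by 1.69 ± 0.68 on the log2 scale at 14 days (unadjusted p = 0.0239, edgeR adjusted p = 0.407). The difference was 0.11 ± 0.48 for Kcnd2 and 0.36 ± 0.74 for Kcnip2, with errors wider than the values, so the responses at both times are not shown to be alike.

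Ratios between members within a library, which do not depend on how libraries are scaled, were compared with two-sided exact permutation tests over libraries, for 5 pairs in 5 comparisons. Of these 25 tests, 9 passed after Benjamini-Hochberg adjustment. The designs of 4 against 3 libraries cannot give a p under 0.0571, so no ratio could pass at 14 days, for Tg or between days 1 and 7.

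The mix of transient outward pores shifted with age and with knockout. Per length, the log2 ratio of Kcna4 to Kcnd2 was -0.23 ± 0.12 (SD, n = 3) in the day 7 controls, so that both were of similar level, and -4.99 ± 0.79 (n = 7) in those of day 60 (exact permutation p = 0.0167, adjusted p = 0.0463). In the libraries labelled KO at 7 days it was -1.41 ± 0.79 (n = 5) and in their controls -5.49 ± 0.46 (n = 4), a difference of 4.08 (exact permutation p = 0.0159, adjusted p = 0.0463). At 14 days it was -0.65 ± 0.69 (n = 4) against -4.32 ± 0.62 (n = 3), with the smallest p that this design allows, 0.0571 (exact permutation). The highest day 60 control was at -3.72 and the lowest library labelled KO at -2.48, so the ratio separated all 9 KO libraries from all 7 controls.

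The Shal-type pore Kcnd2 and the auxiliary subunit Kcnip2 did not fall in proportion at 7 days. At 7 days after knockout the log2 ratio of Kcnip2 to Kcnd2 was 1.98 ± 1.32 (n = 5) against 3.83 ± 0.19 (n = 4) in the controls (exact permutation p = 0.0159, adjusted p = 0.0463). KO libraries 2 and 4 stood at 3.23 and 3.26, near the lowest control at 3.68, and libraries 1, 3 and 5 at 0.11, 1.44 and 1.86. No ratio was tested without libraries 1 and 5 together. At 14 days the ratio of Kcnip2 to Kcnd2 differed by -1.15, with overlapping groups (exact permutation p = 0.171, n = 4 and 3). With the transgene it was 5.77 ± 0.47 against 4.44 ± 0.15, higher by 1.32 (exact permutation p = 0.0571, n = 4 and 3). The ratio of Kcnd3 to Kcnd2 was higher by 1.25 at 7 days after knockout (exact permutation p = 0.0159), by 0.75 at 14 days and by 1.23 with the transgene (exact permutation p = 0.0571 for each). At 14 days KO library 8 stood at -0.16 and the other 3 at -1.73 to -1.52, and without it the difference was 0.39. Kcnd2 was thus lower relative to Kcnd3 in each of the 3 comparisons, although the tests at 14 days and for Tg could not pass. The ratio of Kcna5 to Kcnd2 was also higher, by 1.57 at 7 days (exact permutation p = 0.0159, adjusted p = 0.0463), by 1.53 at 14 days and by 1.32 with the transgene.

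The ratio of the auxiliary subunit Kcne1 to its pore Kcnq1 fell from 2.28 ± 0.04 (n = 3) at day 7 to -2.42 ± 0.94 (n = 7) at day 60 on the log2 scale (exact permutation p = 0.0167, adjusted p = 0.0463). At 14 days after knockout it was -0.61 ± 0.48 against -2.81 ± 0.94 in the controls, higher by 2.20 (exact permutation p = 0.0571, n = 4 and 3), and at 7 days by 0.07 (exact permutation p = 0.905, n = 5 and 4). With the transgene it differed by -0.06 (exact permutation p = 0.743, n = 4 and 3), as both genes fell by similar amounts.

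**Figure D4:**
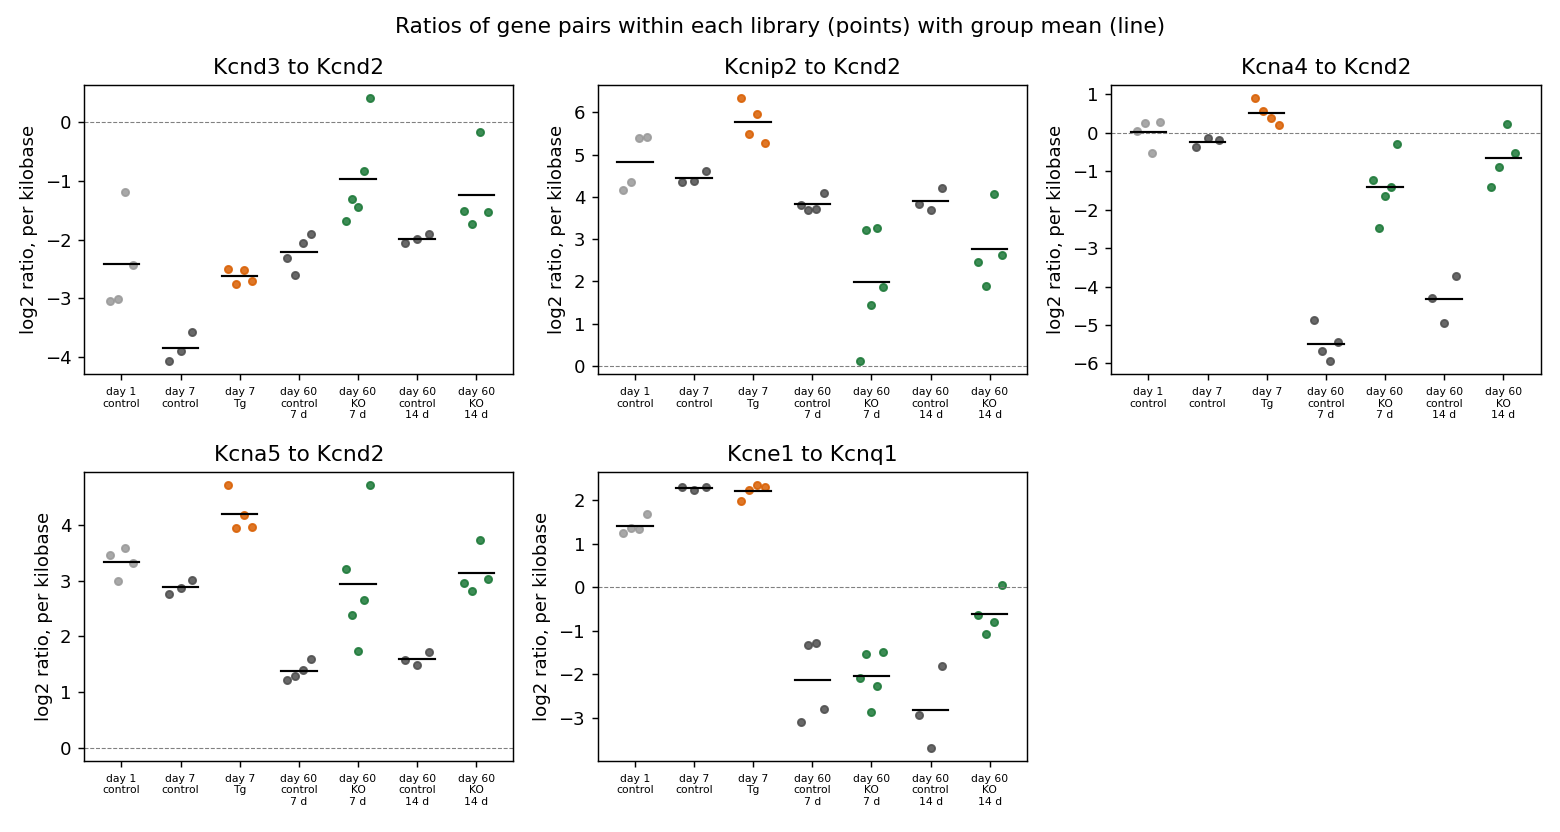
Log2 ratio of 5 pairs of the genes within each library, per kilobase of exon, by group; points are libraries and lines group means. The ratio of Kcna4 to Kcnd2 is near 0 in the day 7 controls. At 7 days after knockout it is at -5.49 on average in the controls and at -1.41 in the libraries labelled KO.

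The order of the 7 groups differed between the genes. Kcnip2 was lowest in both KO groups, at 28.7 ± 23.7 and 35.4 ± 8.94 CPM, which overlapped, then in the neonatal groups at 112 to 118 CPM, which overlapped one another, and highest in both day 60 control groups, at 351 ± 43.7 and 360 ± 20.7. Kcnd2 had the Tg libraries lowest at 3.27 ± 0.871 CPM, apart from the next group, then the neonatal controls and both KO groups at 5.82 to 8.16 CPM, each overlapping its neighbour, then the day 60 controls. Kcnd3 had a step between, since both KO groups, at 5.96 ± 0.629 and 6.96 ± 1.93 CPM, were apart from the neonatal groups below and the controls above. Kcna5 had its KO groups among the neonates, at 30.8 to 36.8 CPM, and the day 60 controls apart above them. Kcne1 was apart in the 4 day 60 groups, at 9.23 to 22.3 CPM, from the 3 neonatal groups at 167 to 269. For Kcnq1, Kcnh2 and Kcna4 every group overlapped its neighbour in the order.

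The genes whose 7 group means were most like each member were sought among 10782 genes by the root mean square difference in log2 level after centring. This is a description over 7 means that share libraries. Kcna5 had the closest matches, Aes and Grsf1 at 0.032 and Mfn2, a mitochondrial fusion gene, at 0.045. Kcnq1 was most like Neurl4 at 0.08 and Kcnh2 most like Sort1, a sorting receptor, at 0.099, and these 2 pores differed from each other by 0.144. Kcnd2 was most like Klhl38 at 0.255 and Kcnj3, an inward rectifier channel gene of the atria, at 0.294, and Kcnd3 most like Timp4, an inhibitor of matrix proteases, at 0.294. Kcna4 was nearest to Myh10, a nonmuscle myosin, at 0.295, and Kcne1 to Sox4, a transcription factor gene, at 0.434. Kcnip2 was nearest to A530016L24Rik at 0.329 and then to Yipf7 at 0.399, and Kcnv2, with the largest distance to its nearest gene of the 9, to mt-Ti at 0.808 and Ogdhl at 0.834. Kcnd2 and Kcnd3 differed from each other by 0.855.

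Of 33 other pore subunits of voltage-gated potassium channels, 15 were tested at 7 days, with 1 higher and 4 lower, and 14 at 14 days, with 1 higher and 5 lower. These counts are below the 50.7% and near the 44.2% of all genes called at these times. Kcng2, a silent subunit and the most abundant of them at a mean of 207 CPM, was not called at 7 days (-0.31 ± 0.13, edgeR adjusted p = 0.0636) or in any other comparison. Kcnd1, the third Shal-type pore, was scarce and higher with knockout, by 1.12 ± 0.24 at 7 days (edgeR adjusted p = 0.00257) and 1.31 ± 0.45 at 14 days (edgeR adjusted p = 0.0386). Kcna7, a Shaker-type pore, was lower at 14 days (-1.35 ± 0.16, edgeR adjusted p = 8.73e-05) and with the transgene (-0.85 ± 0.20, edgeR adjusted p = 0.00545).

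Other auxiliary subunits numbered 12, of which 6 were tested at 7 days, with 2 higher and 1 lower, and 5 at 14 days, with 1 higher and 0 lower by edgeR's test (1 at an unadjusted p under 0.05), beside 50.7% and 44.2% of all genes. Kcnip3, a relative of Kcnip2, was lower at 7 days (-0.90 ± 0.18, edgeR adjusted p = 0.00198) but not called at 14 days (0.26 ± 0.21, edgeR adjusted p = 0.337). Kcne4, an inhibitory relative of Kcne1, was higher at both, by 1.34 ± 0.29 and 0.58 ± 0.19 (edgeR adjusted p = 0.00291 and 0.027). With the transgene, 0 of 6 were higher and 1 was lower, by the same edgeR test. Among all genes tested there, 30.7% were called, 14.9% as higher and 15.8% as lower.

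Among 19 partners and regulators of these channels, 18 were tested at both times after knockout. By edgeR's test none was higher, and 8 were lower at 7 days and 7 at 14 days. Among all genes, 50.7% and 44.2% were called in either direction, and 24.3% and 22.4% as lower. Fhl2, a scaffold protein linked to the Kcnq1 and Kcne1 channel, fell by 1.22 at 7 days (edgeR adjusted p = 0.0212) and by 1.17 at 14 days (edgeR adjusted p = 7.34e-05) on the log2 scale. Fgf13, a modulator of sodium channels, was lower at both times, at -1.73 and -2.25 (edgeR adjusted p = 0.00147 and 5.71e-07). Irx3, an Iroquois factor that takes part in ventricular conduction, held 39.5 to 47.9 CPM with the transgene and 79.5 to 108 in the day 7 controls, a 2-fold fall (edgeR adjusted p = 1.13e-05). With the transgene 2 of the 19 were higher and 8 lower, where 30.7% of all genes were called, 14.9% as higher and 15.8% as lower.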

How the data were processed

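RNA of mouse ventricle was sequenced in 27 libraries. The authors deposited 1 table of counts, whole numbers of reads for 55487 Ensembl genes. The submitters' processing notes name STAR, featureCounts, DESeq2, Salmon and GRCm38 (mm10), with no role or version. The strand setting was not given in the sources used here. Symbols, coordinates and merged exon lengths came from GENCODE M21 on GRCm38 (55227 of 55487 identifiers matched), and promoter windows from RefSeq on GRCm38.p6.

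Counts were tested with edgeR 4.0.16 in R 4.3.3 (filterByExpr, TMM, quasi-likelihood F test, Benjamini-Hochberg adjustment over all genes tested, called under 0.05), in a script checked on simulated data. SE is the log2 fold change over the root of F. Each KO or Tg group was fitted with its own controls, the response difference over the 16 libraries of day 60, and ages over the 14 controls. Levels are CPM after TMM over all 27 libraries. Ratios had 0.5 counts added to each gene. Alternatives were DESeq2 1.42.0, RLE and total count scaling, no filter, replicate number as a block (only libraries with shared numbers), and each library left out. Fits without KO libraries 1 and 5, or without day 1 libraries 3 and 4, were added after seeing the data.

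The 9 genes and all lists were chosen with earlier results of these data known. Genes named beside the 9 are, from each list and comparison, up to 4 with the highest mean (at least 1 CPM) and the 2 largest changes, and for each of the 9 up to 3 genes with the nearest group means (at least 5 CPM). A gene that this rule names is not reported here.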

Additional observations from a re-analysis of the deposited data

Results flagged for a closer look

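In groups of 4 or 5 libraries, a value was picked out where its gap to the nearest library was a large part of the group's range (Dixon's test at the 95% level). Chance picks about 1 in 20 groups, and 4 of 45 groups of these genes were picked. Kcnd3 was at 4.02 CPM in control library 3 of day 1, above the other 3. Kcna5 was at 30.2 CPM in KO library 8 of 14 days, below the other 3. Kcnv2 was at 15.1 CPM in control library 4 of 7 days, below the other 3. Kcnh2 was at 124 CPM in Tg library 3, below the other 3.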

How the results depend on the processing

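DESeq2 and RLE scaling kept the direction of all 62 tested values of the 9 genes, and DESeq2 changed 1 call, that of Kcnh2 at 7 days (-0.61, adjusted p = 0.0341). Total count scaling reversed Kcnq1 at 7 days (0.16), Kcnh2 at 14 days (0.023) and Kcnip2 between days 1 and 7 (-0.036), and Kcne1 at 14 days was called with it (1.59, adjusted p = 0.0211). It moved the median of all genes to 0.45 at 7 days, and the share of calls that were higher to 83.5% from 52.0% at 7 days, to 81.9% from 49.4% at 14 days, to 18.0% from 48.1% between days 7 and 60, to 19.3% from 47.6% between days 1 and 60 and to 41.0% from 52.4% between days 1 and 7. Genes with a different response at 14 days numbered 148 with DESeq2, 2 with total counts, 13 with no filter, 3 without KO libraries 1 and 5, and 0 to 21 with 1 library left out, the 21 without KO library 2.

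With 1 library left out, calls between days 1 and 7 ranged from 2508 to 4492 genes (2536 and 2508 without day 7 controls 1 and 2) and from 0 to 2 of the 9, and 2 of the 9 were called without day 1 libraries 3 and 4. Differences that changed sign were small. In the response they ranged from -0.077 to 0.30 for Kcnv2, -0.13 to 0.40 for Kcnd2 and -0.56 to 0.024 for Kcna4. For Tg they ranged from -0.14 to 0.11 for Kcnd3, -0.030 to 0.088 for Kcnip2 and -0.017 to 0.076 for Kcna5. Between days 1 and 7 they ranged from -0.10 to 0.14 for Kcnip2, -0.17 to 0.10 for Kcna5 and -0.081 to 0.32 for Kcna4. The log2 ratio of Kcne1 to Kcnq1 ranged from -0.25 to 0.36 at 7 days and from -0.11 to 0.016 for Tg. Kcnh2 at 7 days was called without KO library 2 (-0.77), and at 14 days without KO library 8 (-0.51), and Kcne1 at 14 days without KO library 7 (1.42) or control library 7 (2.15) or with no filter (1.25). Kcnd2 was called between days 1 and 7 without day 1 library 1 (0.50) or 2 (0.53), and Kcnh2 between days 7 and 60 without control library 7 of 14 days (-0.22). Without KO libraries 1 and 5, Kcnq1 at 7 days was 0.040, and the response was -0.21 for Kcnd2, -0.25 for Kcnip2, -0.32 for Kcnv2 and -0.031 for Kcnh2. Without day 1 libraries 3 and 4, Kcna4 between days 1 and 7 was -0.24. The cause was not tested. All 9 ratios called remained so with 2 counts added, and each of the 9 lost its call with any 1 library left out, as fewer libraries allow fewer permutations.

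Replicate numbers were not taken as pairs: same-numbered libraries had correlated deviations of -0.307 to 0.117, and the labels do not say what a number shares. Fits with replicate number as a block kept only libraries whose number occurred more than once among the compared groups. For day 60 against younger controls they kept only controls of 7 days. At 14 days they lacked KO libraries 8 and 9, which held 181 and 147 CPM of Kcnh2. Changes due to the block and to the libraries left out cannot be told apart. These fits called 1624 genes between days 1 and 7. Reversed in them were Kcnv2 (-0.23) and Kcnh2 (-0.20) in the response, Kcna5 for Tg (-0.017) and Kcnh2 between days 7 and 60 (0.11). Calls were gained for Kcnh2 at 14 days (-0.76) and Kcne1 between days 1 and 7 (0.77). They were lost for Kcnd3 between days 1 and 7 (-1.17) and Kcnh2 between days 1 and 60 (-0.21). Depth limits Kcnv2 in the neonatal controls, where 5 of 7 libraries held fewer than 3 reads.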
